A study of Mus musculus with 48 samples.

Results

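Splicing factors and RNA-binding proteins of 5 families were followed over the day in 4 mouse brain tissues: the SR proteins with their Tra2 relatives, the heterogeneous nuclear ribonucleoproteins (hnRNPs), the SF3A and SF3B subunits, the PRPF pre-mRNA processing factors and the RBM RNA-binding motif proteins. Members were chosen by gene symbol and mean level, as genes of these families on probe sets annotated with exactly 1 symbol and with a mean log2 level of at least 5.05 over all arrays. Of 89 such genes, 83 passed the level filter, among 17258 genes tested in all: 12 SR and Tra2 genes, 18 hnRNP genes, 8 SF3 genes, 12 PRPF genes and 33 RBM genes. The 6 below it were Sf3b4, Rbm46, Rbm44, Rbm46os, Rbm31y and Rbm8a2, and the closest to it were Rbm47 with a mean of 5.07 inside and Rbm46 with 4.95 outside. Hnrnpa1, Rbm3, Rbm4 and 7 other genes lay only on probe sets with several symbols and were not analysed here. The rule also admits Rbm3os, which is annotated as a long non-coding RNA and not as a protein.

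Male C57BL/6 mice lived under a cycle with 12 h each of light and dark. Their tissues were the ventral midbrain (substantia nigra plus ventral tegmental area, SN/VTA), the striatum (STR), the habenula (HAB) and the prefrontal cortex (PFC). Sampling times are Zeitgeber times (ZT), counted in hours from lights on: ZT 3, 7 and 11 fell in the light phase, while ZT 15, 19 and 23 fell in the dark phase. There were 2 successive 24-h cycles, and every array (Affymetrix Mouse Gene 2.0 ST) carried RNA pooled from 3 mice. This gave 12 arrays per tissue and 48 in all. The labels do not say whether the 4 tissues of a time and cycle came from the same mice, nor give the age of the mice. Deposited log2 levels ran from 1.09 to 13.65, replicate arrays of a tissue and time correlated across genes with r between 0.982 and 0.995, and the mean of the marker genes of the labelled tissue was higher on each of its 12 arrays than on any array of the other 3 tissues. Whole tissue was measured, so that fewer cells of a type and less RNA per cell cannot be told apart. The number of arrays limits the precision.

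SR proteins bind exonic enhancers and recruit the spliceosome, whereas many hnRNPs bind intronic or exonic sites that weaken a neighbouring splice site, and the balance of both sets which exons are kept. SF3A and SF3B are protein complexes of the U2 snRNP, which recognises the branch point, and several PRPF proteins build the tri-snRNP that completes the spliceosome. RBM proteins share an RNA recognition motif but serve many steps, from splicing to RNA decay and ribosome assembly. Alternative splicing is widespread in neurons, and the daily cycle of body temperature is known to change SR protein phosphorylation and splicing in mice.

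A rhythm shared by the 4 tissues was tested by fitting 1 curve of a 24-h period to all 48 arrays after taking out the level of each tissue. Amplitudes below are heights of that curve, mean to peak, on the log2 scale. Arrays lie on the fitted side when they depart from their tissue's mean in the direction of the curve. The curve was fitted to the same arrays, so this count describes the fit and is not separate support. Where the times nearest a gene's fitted peak and trough are set against each other, that comparison describes the fit too. The shared rhythm passed the test in 14 of the 83 members, which is 16.9%, against 5.55% of all genes tested (limma, adjusted p under 0.05 over 17258 genes). Tra2a and Sf3a2 were known to change with time in these data when the members were chosen, so this share is a description. Of the 14, 7 peaked during the light and 7 during the dark, and over all genes the 958 calls divided into 486 and 472. The median amplitude was 0.04 for the members and 0.04 for all genes tested. The calls were spread over SR and Tra2 genes (3 of 12), hnRNP genes (4 of 18), PRPF genes (3 of 12) and RBM genes (4 of 33), with 0 of 8 SF3 genes by limma. An unadjusted p under 0.05 was found for Sf3a2, Sf3b1 and Sf3b6 of the SF3 genes, for 24 of the 83 members (28.9%) and for 19.2% of all genes tested. The 69 other members had amplitudes from 0.00 to 0.10.

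**Figure D1:**
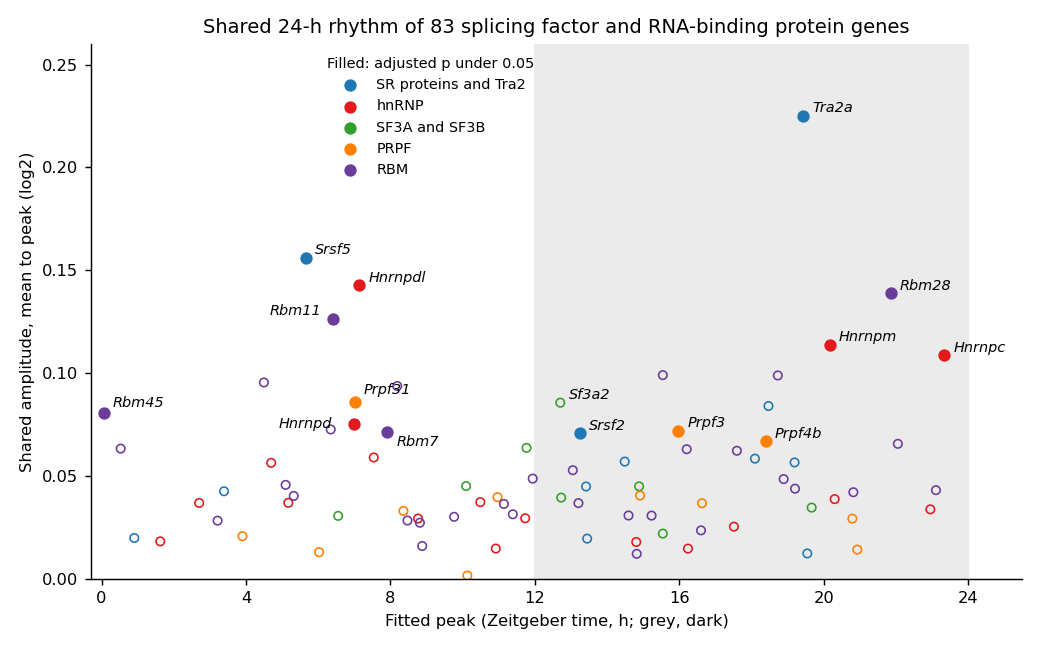
Shared 24-h rhythm of the 83 members. The horizontal axis is the fitted peak in Zeitgeber hours (grey, dark), the vertical axis the amplitude from mean to peak on the log2 scale, and each point is 1 gene coloured by family; filled points passed the test. Tra2a has the highest amplitude of the members at 0.23, with its peak in the dark at ZT 19.4, and the called members otherwise lie between 0.07 and 0.16.

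Among the SR and Tra2 genes, Tra2a had the highest amplitude of all members. It encodes a serine/arginine-rich activator that binds purine-rich exonic enhancers. In SN/VTA its log2 level was 8.53 and 8.44 at ZT 3, 8.25 and 8.32 at ZT 7, 8.46 and 8.51 at ZT 11, 8.79 and 8.82 at ZT 15, 8.82 and 8.81 at ZT 19, and 8.78 and 8.77 at ZT 23 (cycle 1, then cycle 2). All 6 dark arrays of SN/VTA lay above all 6 light arrays. PFC had 8.57 and 8.64 at ZT 3, 8.31 and 8.35 at ZT 7, 8.42 and 8.46 at ZT 11, 8.75 and 8.45 at ZT 15, 8.70 and 8.64 at ZT 19, and 8.80 and 8.81 at ZT 23. STR had 8.66 and 8.78, 8.55 and 8.54, 8.52 and 8.87, 9.05 and 8.93, 8.93 and 8.82, and 8.96 and 9.06 at the same times. HAB had 8.45 and 8.73, 8.34 and 8.36, 8.56 and 8.66, 8.85 and 8.71, 9.01 and 8.78, and 8.77 and 8.77. In every tissue both ZT 7 arrays lay below all 6 arrays of the dark. The shared amplitude was 0.23 ± 0.02 (SE), or 1.37-fold from trough to peak, with the peak at ZT 19.4 ± 0.375 h and an adjusted p of 2.45e-09, and 44 of 48 arrays lay on the fitted side of their tissue's mean. Set against each tissue's mean, the 8 arrays at ZT 19 ran from 0.01 to 0.34 (median 0.12) and the 8 at ZT 7 from -0.36 to -0.22 (median -0.28), without overlap.

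The window around the transcription start of Tra2a, from 250 bases before to 50 bases after it, is shown because Tra2a carries the highest amplitude and holds 1 of the motifs searched. The sequence is from RefSeq, build GRCm38.p6, chr6:49264003-49264302 on the minus strand, written 5′ to 3′, and the capitals mark a cAMP response element (CRE, TGACGTCA), which starts 27 bases before the transcription start.
Tra2a: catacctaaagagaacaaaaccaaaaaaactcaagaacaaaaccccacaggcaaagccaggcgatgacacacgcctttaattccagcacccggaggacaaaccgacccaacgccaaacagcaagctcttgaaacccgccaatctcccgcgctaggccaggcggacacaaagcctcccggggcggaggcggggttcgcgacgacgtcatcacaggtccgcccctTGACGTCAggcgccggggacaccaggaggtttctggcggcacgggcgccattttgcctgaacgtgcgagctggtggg
Both strands were searched for the CRE, for the E-box CACGTG bound by the clock factors, for the D-box TTATGTAA and for a heat shock element searched as GAANNTTC. The CRE stands in 1.79% of 32851 mouse promoter windows of this length in the table and in 2.6% of the 16653 windows of the genes tested, and among the 94 windows of the 73 members that matched by gene ID Tra2a had the only 1. A match is a description of these letters and not evidence of binding.

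Srsf5, an SR protein known as an activator of exon inclusion, ran opposite to Tra2a. Its levels in SN/VTA were 9.0 and 9.16 at ZT 3, 9.13 and 9.12 at ZT 7, 8.92 and 8.90 at ZT 11, 8.60 and 8.64 at ZT 15, 8.62 and 8.80 at ZT 19, and 8.94 and 8.56 at ZT 23. Both early light times were higher there than every dark array. Over the 4 tissues the shared amplitude was 0.16 ± 0.02 with the peak at ZT 5.66 and an adjusted p of 4.29e-06, and 42 of 48 arrays lay on the fitted side. All 16 arrays of ZT 3 and ZT 7 lay above their tissue's mean, and 0 of 8 at ZT 15. Srsf2, an SR protein of nuclear speckles, had a smaller amplitude of 0.07 ± 0.02, a peak at ZT 13.2 and an adjusted p of 0.0246, with 31 of 48 arrays on the fitted side. Tra2b, the close paralogue of Tra2a, did not pass the test: its amplitude was 0.06 ± 0.02 with a fitted peak at ZT 14.5 and an adjusted p of 0.162. The difference between the paralogues was not tested.

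Of the hnRNP genes, Hnrnpdl and Hnrnpd had their peaks in the middle of the light, and Hnrnpm and Hnrnpc in the later part of the dark. Hnrnpdl is the close relative of Hnrnpd, and both proteins are known to bind AU-rich elements. In HAB the levels of Hnrnpdl were 10.07 and 10.04 at ZT 3, 10.12 and 10.17 at ZT 7, 10.06 and 9.99 at ZT 11, 9.86 and 9.85 at ZT 15, 9.74 and 9.91 at ZT 19, and 9.78 and 9.91 at ZT 23. In SN/VTA they were 9.71 and 9.81, 9.87 and 9.96, 9.81 and 9.89, 9.68 and 9.59, 9.50 and 9.60, and 9.63 and 9.49. In both tissues every light array lay above every dark array. The shared amplitude of Hnrnpdl was 0.14 ± 0.02, the peak at ZT 7.14 and the adjusted p 1.38e-07, with 43 of 48 arrays on the fitted side, and the 8 arrays at ZT 7 (0.10 to 0.25 above their tissue's mean) did not overlap with the 8 at ZT 19 (-0.22 to 0.08). Hnrnpd had an amplitude of 0.08 ± 0.02, a peak at ZT 6.99 and an adjusted p of 0.0202, with 35 of 48 arrays on the fitted side. With the mean of its probe sets Hnrnpd did not pass (amplitude 0.05, adjusted p 0.177), and its second probe set had a fitted amplitude of 0.03.

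Hnrnpc, which coats uridine tracts of nascent transcripts, was highest around the end of the night. Its shared amplitude was 0.11 ± 0.02, with the peak at ZT 23.3 and an adjusted p of 2.39e-05. Relative to each tissue's mean its 8 arrays at ZT 23 ran from -0.03 to 0.16, and the 8 at ZT 11 from -0.25 to -0.06, where all 8 were below the mean. Each array at ZT 23 exceeded every array at ZT 11, so these times, nearest the fitted peak and trough, did not overlap. Such times did overlap for other called members, among them Srsf5, Srsf2 and Hnrnpm. The share over all genes was not computed. Hnrnpm, a regulator that binds GU-rich sites, had an amplitude of 0.11 ± 0.02, a peak at ZT 20.2 and an adjusted p of 0.00415, with 32 of 48 arrays on the fitted side. Its levels in PFC were 9.58 and 9.60 at ZT 3, 9.26 and 9.30 at ZT 7, 9.32 and 9.49 at ZT 11, 9.61 and 9.51 at ZT 15, 9.61 and 9.71 at ZT 19, and 9.46 and 9.42 at ZT 23. The PFC arrays of Hnrnpm at ZT 3 lay within the range of those at ZT 15, and both arrays of ZT 7 were lower than all the others.

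**Figure D2:**
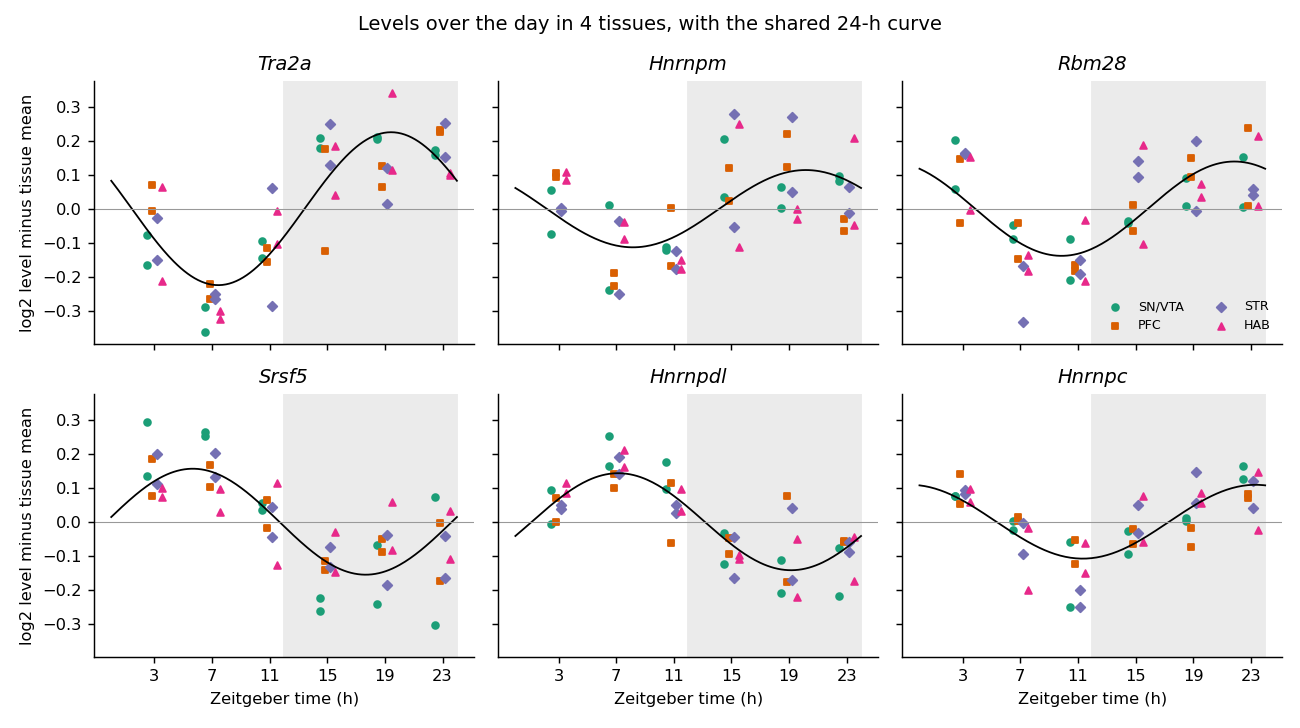
Levels of 6 members over the day. The horizontal axis is the Zeitgeber time in hours (grey, dark), the vertical axis the log2 level minus the mean of the tissue, each point is 1 array (points of different tissues are set slightly apart), and the line is the shared 24-h curve. The fitted curves of Tra2a, Hnrnpm, Rbm28 and Hnrnpc peak in the dark, the last at ZT 23.3 close to lights on, and those of Srsf5 and Hnrnpdl in the light; at ZT 7 all 8 arrays of Tra2a lie below their tissue's mean and all 8 of Srsf5 and Hnrnpdl above it.

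The promoter windows of Hnrnpm and Hnrnpd are shown because both hold an E-box, marked by the capitals; they lie at chr17:33685409-33685708 and chr5:99978889-99979188, both on the minus strand (RefSeq, GRCm38.p6). The E-box of Hnrnpd starts 32 bases before the transcription start, and that of Hnrnpm after the start, at base 264 of the window.
Hnrnpm: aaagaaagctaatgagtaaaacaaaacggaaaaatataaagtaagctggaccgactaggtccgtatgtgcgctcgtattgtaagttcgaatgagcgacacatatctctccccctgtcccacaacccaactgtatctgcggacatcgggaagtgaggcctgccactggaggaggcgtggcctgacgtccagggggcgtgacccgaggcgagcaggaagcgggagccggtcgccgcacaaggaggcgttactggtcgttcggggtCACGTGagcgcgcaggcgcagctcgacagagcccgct
Hnrnpd: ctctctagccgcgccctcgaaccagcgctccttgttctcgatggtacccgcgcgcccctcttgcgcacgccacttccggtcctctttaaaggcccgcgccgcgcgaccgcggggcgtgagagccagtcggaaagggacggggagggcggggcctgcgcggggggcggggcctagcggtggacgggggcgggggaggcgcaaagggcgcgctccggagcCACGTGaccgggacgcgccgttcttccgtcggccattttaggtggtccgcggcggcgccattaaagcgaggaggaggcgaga
An E-box stood in 4 of the 15 windows of the 14 members with a shared rhythm (Hnrnpm, Hnrnpd and both windows of Prpf3), in 14 of the 94 windows of all matched members, in 9.10% of the windows of the genes tested and in 7.15% of all windows. These genes do not share a phase: the peak was at ZT 20.2 for Hnrnpm, ZT 6.99 for Hnrnpd and ZT 16 for Prpf3. A D-box stood in 0 of the 94 windows, in 0.643% of those of the genes tested and in 0.938% of all windows. The heat shock element stood in 9 of the 94, in 6.04% of those of the genes tested and in 7.86% of all windows, among the rhythmic members only in Rbm45.

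Sf3a2 encodes a subunit of SF3A, which joins the U2 snRNP, and was the only member to pass the test for a rhythm that differs between the tissues. In PFC its level was 8.15 and 8.17 at ZT 3, 8.31 and 8.30 at ZT 7, 8.70 and 8.66 at ZT 11, 8.67 and 8.68 at ZT 15, 8.39 and 8.58 at ZT 19, and 8.17 and 8.27 at ZT 23. The 4 PFC arrays of ZT 11 and ZT 15, on both sides of lights off, were higher than the other 8. SN/VTA had 8.58 and 8.46, 8.58 and 8.48, 8.59 and 8.68, 8.57 and 8.66, 8.65 and 8.62, and 8.65 and 8.53 at the same times. STR had 8.82 and 8.75, 8.73 and 8.71, 8.71 and 8.86, 8.61 and 8.70, 8.57 and 8.54, and 8.56 and 8.70. HAB had 8.53 and 8.76, 8.58 and 8.77, 8.67 and 8.73, 8.61 and 8.58, 8.63 and 8.62, and 8.57 and 8.67. In these 3 tissues no time had both its arrays above or below all the others, and in HAB the cycles differed at ZT 3 by more than the fitted curve did over the day.

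The PFC curve of Sf3a2 had an amplitude of 0.29 ± 0.04, or 1.5-fold from trough to peak, a peak at ZT 13.9 and an adjusted p of 0.0117 over the 12 arrays of PFC, with 11 of them on the fitted side. The fitted amplitude was 0.06 ± 0.03 in SN/VTA (adjusted p 0.662), 0.10 ± 0.04 with a peak at ZT 7.30 in STR (adjusted p 0.621) and 0.04 ± 0.04 in HAB (adjusted p 0.953). The difference of rhythm between the tissues, tested as the joint F of the 6 tissue by curve terms over 48 arrays, passed the threshold for Sf3a2 alone of the 83 members (F = 11.8, adjusted p 0.00203), against 0.029% of all genes tested, which is 5 genes. Hnrnph2 followed with an adjusted p of 0.451, and 8 members (9.64%) had an unadjusted p under 0.05, against 6.65% of all genes. The shared curve of Sf3a2 had an amplitude of 0.09 ± 0.02 and an adjusted p of 0.0660. The other SF3A subunits, Sf3a1 and Sf3a3, had shared amplitudes of 0.04 and 0.04 with adjusted p of 0.343 and 0.279.

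The promoter window of Sf3a2 is shown for its pattern in PFC; it lies at chr10:80798485-80798784 on the plus strand (RefSeq, GRCm38.p6) and is all in lower case because these letters hold none of the 4 motifs.
Sf3a2: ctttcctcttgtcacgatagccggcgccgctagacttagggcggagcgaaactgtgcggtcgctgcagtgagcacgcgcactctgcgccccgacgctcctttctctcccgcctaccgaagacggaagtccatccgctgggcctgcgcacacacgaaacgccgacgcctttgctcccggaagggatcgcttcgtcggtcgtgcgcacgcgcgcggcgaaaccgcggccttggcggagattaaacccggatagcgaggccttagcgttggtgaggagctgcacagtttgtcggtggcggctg

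**Figure D3:**
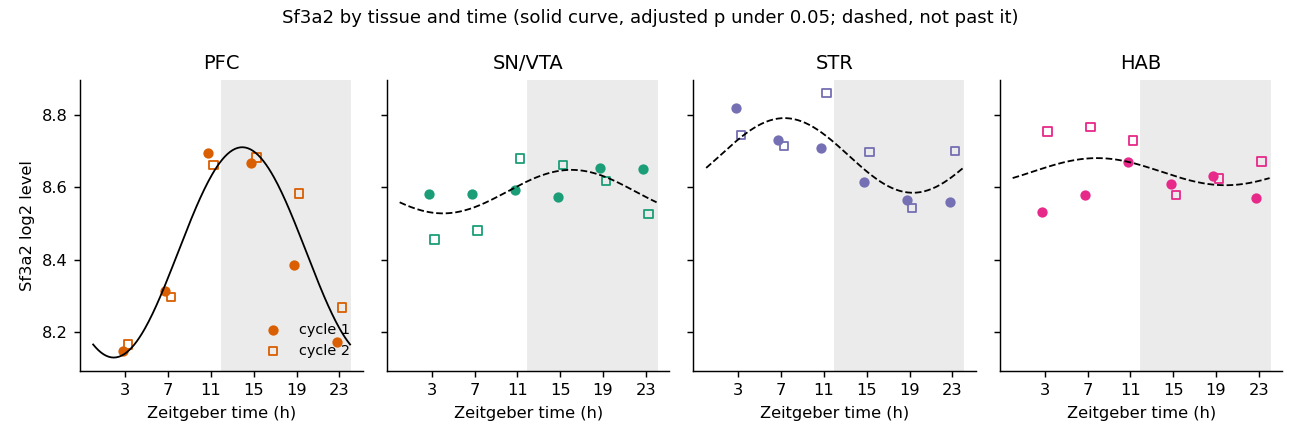
Sf3a2 in the 4 tissues. The horizontal axis is the Zeitgeber time in hours (grey, dark), the vertical axis the log2 level, points are single arrays (filled, cycle 1; open, cycle 2) and lines are the 24-h curve fitted in each tissue. PFC runs from 8.15 at ZT 3 to 8.70 at ZT 11, whereas the fitted curves of SN/VTA, STR and HAB have amplitudes of 0.06, 0.10 and 0.04 and did not pass the test.

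The PRPF genes with a shared rhythm encode tri-snRNP proteins and a kinase of the spliceosome. Prpf31, needed to join U4/U6 to U5, had an amplitude of 0.09 ± 0.02 with the peak at ZT 7.01 and an adjusted p of 0.0170. All 8 arrays of Prpf31 at ZT 19 lay below their tissue's mean, and 6 of 8 at ZT 7 above it. Prpf4b, the kinase, had an amplitude of 0.07 ± 0.02, a peak at ZT 18.4 and an adjusted p of 0.0208, with 39 of 48 arrays on the fitted side. Prpf3, a protein of the U4/U6 snRNP, had an amplitude of 0.07 ± 0.02, a peak at ZT 16 and an adjusted p of 0.0495, and lost the call under each of the 15 other settings tried (adjusted p between 0.0511 and 0.394).

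Of the RBM genes, Rbm28, known from human cells as a nucleolar protein, had the highest amplitude. Its levels in STR were 7.80 and 7.80 at ZT 3, 7.30 and 7.47 at ZT 7, 7.44 and 7.48 at ZT 11, 7.78 and 7.73 at ZT 15, 7.84 and 7.63 at ZT 19, and 7.69 and 7.68 at ZT 23. The low times were ZT 7 and ZT 11, where all 16 arrays of the 4 tissues lay below their tissue's mean. The shared amplitude was 0.14 ± 0.02, the peak at ZT 21.9 and the adjusted p 5.68e-05, with 41 of 48 arrays on the fitted side. Rbm11, known as a splicing regulator from human brain and testis, peaked at ZT 6.41 with an amplitude of 0.13 ± 0.03 and an adjusted p of 0.0102, and 0 of its 8 arrays at ZT 15 were above their tissue's mean. Rbm45, first described in developing rat neurons, peaked at ZT 0.057, close to lights on, with an amplitude of 0.08 ± 0.02 and an adjusted p of 0.0160. Rbm7, part of the nuclear exosome targeting complex in human cells, had an amplitude of 0.07 ± 0.02, a peak at ZT 7.92 and an adjusted p of 0.0338.

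On the 12 arrays of a single tissue few members passed. In SN/VTA 2 members did, against 0.162% of all genes tested: Tra2a with an amplitude of 0.28 ± 0.03, a peak at ZT 18.9 and an adjusted p of 0.00904, and Hnrnpdl with 0.20 ± 0.03, ZT 7.91 and an adjusted p of 0.0430. Hnrnpdl lost this call without any 1 of the 12 arrays (adjusted p up to 0.119). In PFC Sf3a2 was the only 1, against 0.18% of all genes. STR and HAB had 0 each by limma, against 0.0174% of all genes in both. An unadjusted p under 0.05 was found for 12 members in STR (14.5%, against 8.51% of all genes) and for 5 in HAB (6.02%, against 6.30%). Tra2a had fitted peaks of ZT 18.9 in SN/VTA, ZT 21.1 in PFC, ZT 19.2 in STR and ZT 18.9 in HAB, with amplitudes of 0.28, 0.20, 0.21 and 0.24, of which the last 3 did not pass on their own (adjusted p 0.143, 0.429 and 0.437).

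Since the labels leave it unsaid whether tissues share mice, arrays of the same time and cycle were also averaged over the tissues, which leaves 12 values. Tra2a (adjusted p 0.0103), Hnrnpdl (0.0126) and Srsf5 (0.0423) then passed, against 0.771% of all genes tested. A fit with time and cycle as a random block gave 13 members, against 4.97% of all genes. Each cycle of 24 arrays was also fitted alone. Cycle 1 gave 4 members, Tra2a, Hnrnpdl, Srsf5 and Rbm28, against 1.15% of all genes, and cycle 2 gave Tra2a alone (adjusted p 0.0419), against 0.406%. The amplitude of Tra2a was 0.27 in cycle 1 and 0.18 in cycle 2, with peaks at ZT 19.1 and ZT 19.9. Hnrnpc had peaks at ZT 23.3 in both cycles and Prpf3 at ZT 17.7 and ZT 14.1.

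Other genes of RNA processing were read from the same test of the shared rhythm, which 5.55% of all genes tested passed. Among 26 SR protein kinases and SR-related coactivators 4 passed, all with a peak in the dark: Clk1, a kinase that phosphorylates SR proteins (0.12 ± 0.02, ZT 14.7, adjusted p 0.00106), its relative Clk4 (0.09, ZT 12.4), Srpk1 (0.07, ZT 19.1) and Acin1 (0.08, ZT 18.7). Among 39 other core spliceosome genes 1 light-phase gene passed, Luc7l2 (0.10, ZT 9.12), and 3 dark-phase genes, Aqr, Snw1 and Dhx15. Among 30 neuronal and tissue-specific regulators Fubp3 passed as a light-phase gene, and Khdrbs3 (0.12, ZT 21.8) and Fubp1 as dark-phase genes. Among 32 other RNA-binding proteins 6 passed, with Cirbp, a cold-inducible protein, at 0.30 ± 0.02 and ZT 8.31 (adjusted p 2.29e-12) and Sfpq, a paraspeckle protein, at 0.15 ± 0.02 and ZT 17.6. Heat shock genes gave 0 calls in the light and 10 in the dark of 14, and core clock genes 6 and 9 of 20. Marker genes of cell types moved with time in 3 of 8 oligodendrocyte, 2 of 9 astrocyte and 3 of 7 endothelial genes, and in 0 of 10 neuronal genes; the part of cell make-up in the members' rhythm was not tested.

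The second question was where the members were most abundant. The contrast took each tissue minus the average of its 3 counterparts, with the times weighted equally, and a member was called at an adjusted p under 0.05 with a log2 difference of at least 0.5. PFC stood apart in the number of calls. There 18 of 83 members, 21.7%, were higher, against 9.95% of all genes tested, and 4 members, 4.82%, were lower, against 13% of all genes. The mean level was highest in PFC for 46 of 83 members (55.4%) and for 25.05% of all genes tested. The median difference in PFC was 0.16 for the members and -0.05 for all genes tested, and 57 of 83 members had a difference above 0. For 18 members (21.7%) no PFC array overlapped with the 36 arrays from elsewhere and PFC was the higher, against 7.50% of all genes; these are not all the same genes as the called ones, of which Rbm33, Rbm34 and Rbm12b2 had 1 array each within the others' range. Without a threshold on size, 51 members were higher in PFC and 22 lower (32.2% and 42.6% of all genes), 20 higher in SN/VTA and 45 lower (44.3% and 29.1%), 24 higher in STR and 42 lower (34.1% and 40.9%), and 25 higher in HAB and 29 lower (31.4% and 36%). With a difference of at least 1, the counts were 3 and 0 in PFC (2.34% and 2.94% of all genes), 0 and 0 in SN/VTA (2.25% and 1.3%), 1 and 0 in STR (1.03% and 1.16%), and 0 and 0 in HAB (1.4% and 0.678%). A gene's 4 differences sum to 0, so a gene high in PFC is lower elsewhere in the same arrays, and these contrasts are not independent of each other.

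**Figure D4:**
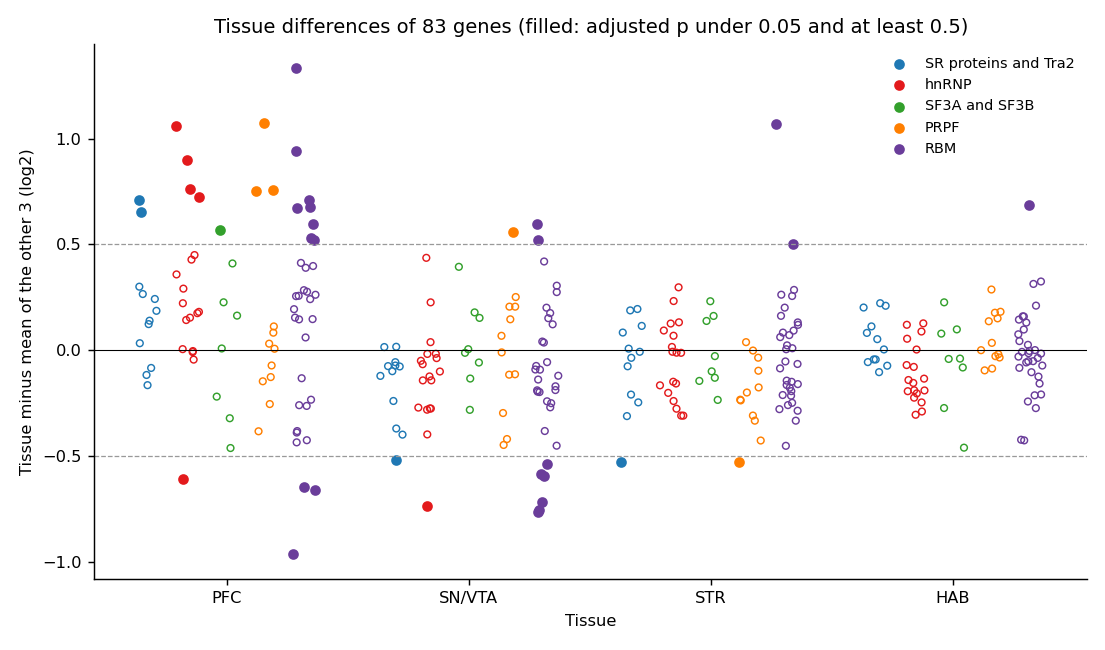
Differences between tissues for the 83 members. The vertical axis is the log2 level of a tissue minus the mean of the other 3, each point is 1 gene coloured by family, filled points passed the test with a difference of at least 0.5 (dashed lines), and points are spread sideways for legibility. PFC holds 18 filled points above 0 and 4 below, SN/VTA 3 above and 8 below, STR 2 and 2, and HAB 1 and 0.

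The largest PFC difference belonged to Rbm25, known from human cells as a splicing regulator of the BCL-X transcript. Its level on the 12 arrays of PFC ran from 10.21 to 10.59 (median 10.40), against 8.68 to 8.91 (8.84) in SN/VTA, 8.94 to 9.28 (9.21) in STR and 9.11 to 9.29 (9.20) in HAB. The PFC arrays did not overlap with the others. The difference was 1.33 ± 0.03 (SE), or 2.52-fold, with an adjusted p of 1.37e-24. Prpf39, a protein of the U1 snRNP, had 8.80 to 9.33 in PFC (median 9.14), against 7.78 to 8.29 (7.97) in SN/VTA, 7.80 to 8.01 (7.92) in STR and 8.11 to 8.34 (8.22) in HAB. PFC was again separate, with a difference of 1.07 ± 0.04 (2.10-fold). Hnrnph1, which binds runs of G, averaged 9.49 ± 0.16 in PFC, against 8.14 ± 0.09 in SN/VTA, 8.57 ± 0.15 in STR and 8.58 ± 0.09 in HAB (SD, n = 12 each), a difference of 1.06 ± 0.04. The close relative Hnrnph2 was also higher, by 0.72 ± 0.03, and so were the neighbours in name Rbm12b1 by 0.94 and Rbm12b2 by 0.71; whether such paralogues share probe sequence was not checked.

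By family the members higher in PFC were 4 of 18 hnRNP genes (Hnrnph1, Hnrnpr, Hnrnpm and Hnrnph2), 3 of 12 PRPF genes (Prpf39, Prpf38b and Prpf4b), 2 of 12 SR genes (Srsf1 and Srsf5), 1 of 8 SF3 genes (Sf3b2) and 8 of 33 RBM genes (Rbm25, Rbm12b1, Rbm12b2, Rbm26, Rbm34, Rbmx, Rbm48 and Rbm33). Over all genes tested 9.95% were higher in PFC. Median differences in PFC were 0.20 for hnRNP, 0.02 for PRPF, 0.16 for SR and Tra2, 0.09 for SF3 and 0.24 for RBM genes. Srsf5 averaged 9.75 ± 0.12 in PFC, against 8.87 ± 0.22 in SN/VTA, 9.20 ± 0.14 in STR and 9.21 ± 0.10 in HAB (SD, n = 12 each). Srsf5, Hnrnpm and Prpf4b were on both the list of rhythmic members and the list of those higher in PFC. Whether these 3 are more than unrelated lists of such sizes would share was not tested.

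The 4 members lower in PFC were Rbm4b, Rbm3os, Rbm11 and Hnrnpk. Hnrnpk, which binds C-rich RNA, had 10.74 to 10.95 in PFC, against 11.38 to 11.56 in SN/VTA, 11.46 to 11.63 in STR and 11.29 to 11.46 in HAB. The tissues did not overlap with PFC, and the difference was -0.61 ± 0.02 (adjusted p 7.64e-20). Rbm4b, a paralogue of the splicing regulator Rbm4, averaged 6.72 ± 0.25 in PFC, against 7.84 ± 0.08 in SN/VTA, 7.55 ± 0.10 in STR and 7.68 ± 0.13 in HAB (SD, n = 12 each), a difference of -0.97 ± 0.05. Rbm3os passed the level filter of 5.05 through the other tissues, with means of 4.70 in PFC, against 5.40 in SN/VTA, 5.24 in STR and 5.44 in HAB.

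**Figure D5:**
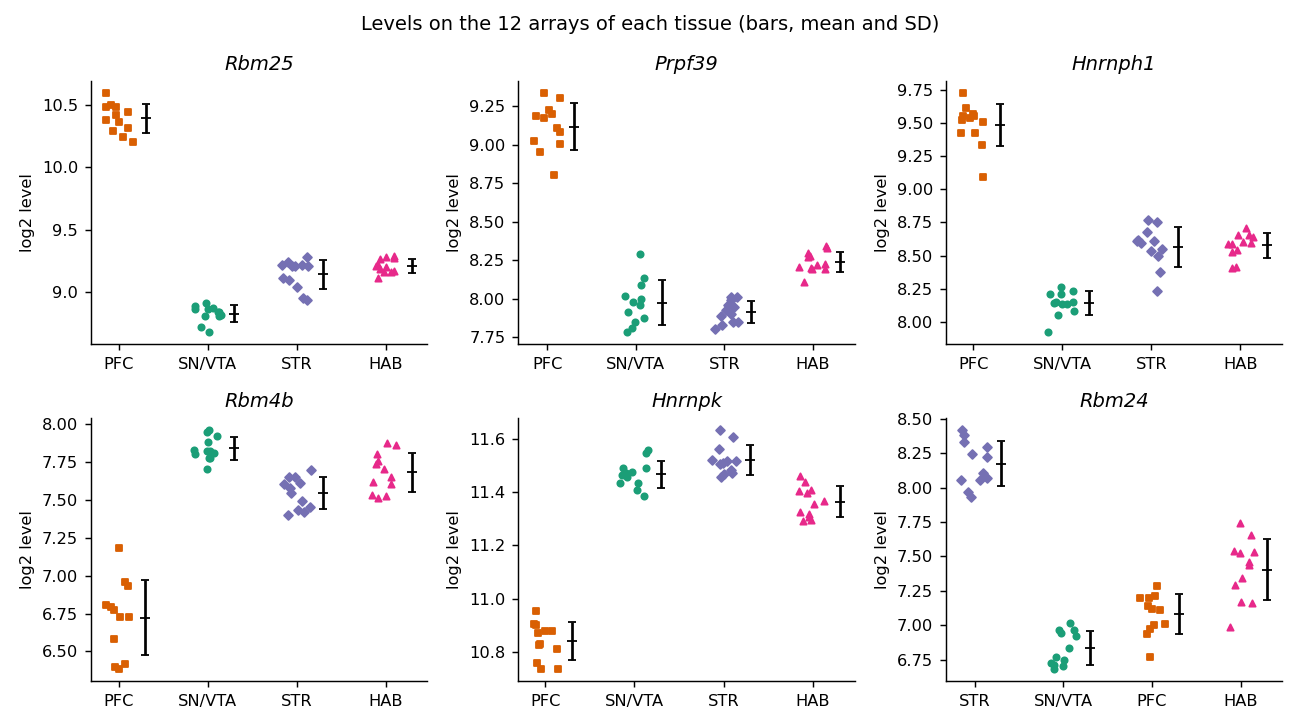
Levels of 6 members by tissue. The vertical axis is the log2 level (a scale of its own for each gene), each point is 1 of 12 arrays, and bars give the mean and SD. Rbm25, Prpf39 and Hnrnph1 are higher in PFC than in the other tissues without overlap, Rbm4b and Hnrnpk lower, and Rbm24 is higher in STR.

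Several members have more than 1 probe set, and these did not always run alike. Of 11 such members, 4 had all probe sets on 1 side in PFC and 7 had them on both sides. In Hnrnpul1, Srsf6 and Sf3b3 the second probe set, on the other side, had means of 4.81, 4.57 and 3.15, below the level filter. In Hnrnpd, Hnrnpf, Rbm38 and Srsf1 the probe set on the other side had means of 5.81, 6.12, 6.02 and 6.92, above that filter. Srsf1, the founding SR protein, differed by 0.71 in PFC on its probe set of higher mean and by -1.36 on the other. Hnrnpk differed by -0.61, -0.17 and -0.67 on its 3 probe sets, and Sf3b2 by 0.57 and 0.02. The second probe set of Sf3b2 had a mean of 4.32, also below the level filter. With the mean of all probe sets of a gene, Srsf1 changed direction to -0.32 and the PFC calls of Srsf1, Hnrnpk and Sf3b2 and the STR call of Srsf1 were lost. Calls gained with that mean are not listed here. Hnrnpu, not called as reported, differed in PFC by 0.45 and 0.66 on its 2 probe sets. Of the 72 members with a single probe set, 15 were higher in PFC, which is 20.8%, against 9.95% of all genes tested.

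In SN/VTA the split ran the other way, with 3 members higher (3.61%, against 12.5% of all genes tested) and 8 lower (9.64%, against 5.82%). The members lower there were Rbmx, a relative of the hnRNPs (-0.76), and Rbm25, Hnrnph1, Rbm24, Rbm12b2, Rbm33, Rbm5 and Srsf5. Rbmx averaged 7.85 ± 0.13 in SN/VTA, against 8.53 ± 0.06 in HAB, 8.44 ± 0.12 in STR and 8.87 ± 0.10 in PFC (SD, n = 12 each). Prpf19, the core of a complex that activates the spliceosome (0.56), Rbm11 (0.60) and Rbm4b (0.52) were higher. These counts moved with the scaling of the arrays: after centring each array on its median 6 members were higher and 4 lower, and after quantile normalization 0 were higher and 13 lower, while the PFC counts stayed at 18 and 4 in both. The median SN/VTA difference of all genes tested moved as well: 0.05 as deposited, 0.20 with median centring and -0.01 with quantile normalization. That of the members was -0.09, 0.05 and -0.21. The shares of all genes called in SN/VTA under these scalings are not given here.

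STR and HAB held few calls. In STR 2 members were higher (2.41%, against 4.93% of all genes) and 2 lower (2.41%, against 8.81%). Rbm24, known as a splicing regulator of muscle, averaged 8.17 ± 0.16 in STR, against 6.83 ± 0.12 in SN/VTA, 7.08 ± 0.15 in PFC and 7.40 ± 0.22 in HAB (SD, n = 12 each). This was a difference of 1.07 ± 0.06 (adjusted p 1.94e-15), with all 12 STR arrays above the rest. Rbm7 was higher by 0.50 ± 0.03, at the threshold itself, and kept the call in 36 of the 48 fits that leave out 1 array. Prpf39 and Srsf1 were lower, with differences of -0.53 each. In HAB 1 member was higher (1.2%, against 5.53% of all genes) and 0 were lower by limma, against 3.85%, with 29 lower at an adjusted p under 0.05 and no threshold on size. The 1 was Rbm47, a cofactor of RNA editing, with 4.82 to 6.43 in HAB, against 4.62 to 5.44 in SN/VTA, 4.72 to 5.22 in PFC and 4.53 to 5.22 in STR. Its mean of 5.58 in HAB lay above the level filter of 5.05, and its means of 4.94 in SN/VTA, 4.89 in PFC and 4.86 in STR lay below it, so it passed the filter only through HAB and its difference is a description. Only 7 of 12 HAB arrays exceeded all others, and the mean of the choroid plexus markers ran from 6.94 to 9.05 on the HAB arrays, against 5.80 to 7.41 elsewhere; their part in the result was not tested.

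Cell type markers moved with the tissues too. The mean of the 8 oligodendrocyte markers was 8.57 to 9.07 on PFC arrays, against 10.32 to 10.54 in SN/VTA, 9.22 to 9.48 in STR and 9.23 to 10.09 in HAB. Oligodendrocyte markers were lower in PFC in 7 of 8 genes and higher in SN/VTA in 7 of 8, and astrocyte markers lower in PFC in 5 of 9 and higher in SN/VTA in 7 of 9. The 10 neuronal markers gave 1 higher and 1 lower in PFC, and 3 higher and 1 lower in SN/VTA. The part of these cells in the members' tissue differences was not tested. Among the other RNA genes, 8 of 26 SR kinases and coactivators were higher in PFC and 0 lower, with Cwc22 at 0.84 and Bclaf1 at 0.80. Other core spliceosome genes gave 5 higher and 7 lower of 39, with Cdc40 at 1.12 and Phf5a, a subunit of SF3B, at -1.49. Over all genes tested, 9.95% were higher and 13% lower in PFC, and 12.5% higher and 5.82% lower in SN/VTA.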

How the data were processed

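Levels were taken as the authors deposited them, as log2 values per probe set; how background was corrected and arrays were summarised and normalized is not given in the sources used here. Every column (48) belonged to a sample, with 0 unused. A single symbol was annotated for 23521 of 41345 rows; rows with several symbols were left out, each gene kept its row of highest mean, and 17258 of 22180 genes reached the mean of 5.05. Without detection calls, the level of background is unknown. Members and gene lists were chosen with earlier results of these data known, and all lists named in the text are given with their counts.

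Tests used limma 3.58.1 (lmFit and eBayes) in R 4.3.3: a joint F of the cosine and sine of 24 h over 48 arrays with tissue as a term, the same over 12 arrays of a tissue with 9 residual degrees of freedom, the 6 tissue by curve terms, and each tissue against the other 3 with 24 tissue-by-time groups. Benjamini-Hochberg adjustment ran over 17258 genes, with a threshold of 0.05; p-values measure the spread between pools. Genes were named by rule: members past a test of rhythm, the 5 highest and 5 lowest called members per tissue, Tra2a, Tra2b, Sf3a1, Sf3a2 and Sf3a3, the 3 highest and 3 lowest mean levels, and the 4 smallest p of each other RNA list; the others, among them those of the PFC family counts and the RNA genes by tissue, were chosen after their values were seen. Mean levels of Rbm47, Rbm3os and Rbmxl2 were 5.07, 5.19 and 5.30, and of Prpf8, Hnrnpu and Hnrnpk 10.5, 11.0 and 11.3; levels of different probe sets are not compared.

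The replicate number marks the 24-h cycle, per the labels. For 36 pairs of arrays that share a time and a number but not a tissue, the residuals from the group means had an average r of 0.0357, and the tests held no term for the number. Alternatives were other scalings, filters, probe set rules, thresholds, a variance trend, blocks for the cycle or for time and cycle, single cycles, and leaving out each tissue or each array. Promoter windows were matched by gene ID for 73 of 83 members. Figures were drawn in Python 3.11.15 with numpy 2.4.6, pandas 2.3.3 and matplotlib 3.10.9.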

Additional observations from a re-analysis of the deposited data

Results flagged for a closer look

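The 24-h rhythm of Sf3a2 differed between the tissues by a test of the difference itself (F = 11.8, adjusted p 0.00203 over 17258 genes by limma). The amplitude was 0.29 in PFC, 0.06 in SN/VTA, 0.10 in STR and 0.04 in HAB. Sf3a2 was already known to change with time in these data when the members were chosen. The call held under all 7 other settings and without any 1 of the 48 arrays, with an adjusted p of at most 0.0118.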

How the results depend on the processing

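The count of members with a shared rhythm, 14 as reported, was 13 with a replicate block, 13 with a random block of time and cycle, 3 with the mean of the 4 tissues as 12 values, 4 in cycle 1 alone, 1 in cycle 2 alone, 5 without SN/VTA, 7 without PFC, 8 without STR, 8 without HAB and between 12 and 15 without any 1 array; fewer arrays or values enter these last fits. Between tissues at the same time, the differences of cycle 2 minus cycle 1 had an average r of 0.0357. That average cannot tell whether the tissues share mice. The replicate block lost 1 call in SN/VTA. In SN/VTA the rhythm count, 2 as reported, was 1 with median centring, with centring on the median of the genes tested (added after seeing the data), with no level filter and with the replicate block, 5 with a variance trend and between 1 and 2 without 1 array. In PFC it was 3 with a variance trend. Of all genes tested, 4.97% passed the shared test with the random block and 0.771% with the averaged tissues. The shares were 1.15% in cycle 1 and 0.406% in cycle 2. For the other settings of these rhythm counts the share of all genes is not given here, so those counts cannot be set against it. With a log2 difference of at least 1, the members higher and lower were 0 and 0 in SN/VTA, 3 and 0 in PFC, 1 and 0 in STR, and 0 higher in HAB. With no threshold on size they were 20 and 45, 51 and 22, 24 and 42, and 25 and 29. In SN/VTA, where 3 members were higher and 8 lower as reported, median centring gave 6 and 4, centring on the genes tested 0 and 15, and quantile normalization 0 and 13; the median of all genes there was 0.05 as deposited and 0.20, -0.10 and -0.01 under these. In STR median centring gave 1 higher and 4 lower, centring on the genes tested 0 lower and quantile normalization 1 lower, with between 1 and 2 higher without 1 array. Lower members in HAB were 1 with median centring and 1 with centring on the genes tested. With the mean of all probe sets the PFC difference of Srsf1 turned to -0.32. Rbm7 kept its shared call in 43 of 48 fits without 1 array and Prpf3 in 14, Rbm48 lost its PFC call without the ZT 23 array of cycle 1 in PFC (0.497), and Srsf5 its SN/VTA call without the ZT 23 array of cycle 2 there (-0.487). Why these values moved was not tested. Of the results for named genes, 3079 of the repeats kept direction and call, 160 lost the call, 8 gained it and 1 turned. The median of the members in PFC was 0.16 as deposited and 0.15, 0.27 and 0.20 under the 3 scalings.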
